A study of Schmidtea mediterranea with 2 samples.

Results

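Beads that held the intestine gene mat2a (SMED30021445) and no piwi-1 (SMED30007406), called mat2a-only beads here, were described across all genes of a planarian Slide-seqV2 puck. They were selected on their own UMI counts in the Syrah-processed table of both sequencing runs. Syrah is a step before alignment that recovers bead barcodes shifted by synthesis errors, and a unique molecular identifier (UMI) stands for 1 captured RNA molecule. The rule took beads with at least 50 UMIs in total, at least 1 UMI of mat2a and 0 UMIs of piwi-1. Of 8789 beads with at least 50 UMIs, 632 met this rule, which is 7.19% (95% confidence interval 6.66% to 7.75%). Of the other beads, 7020 held neither gene, 968 held piwi-1 without mat2a and 169 held both. Because the rule used mat2a and piwi-1, their levels on these beads are given as a description only.

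The planarian intestine is a branched, blind-ended gut that digests food and distributes nutrients through the body, and it lies close to the stem cells in the surrounding parenchyma. mat2a encodes a methionine adenosyltransferase, an enzyme that makes S-adenosylmethionine, the methyl donor of the cell, and it is used as a marker of planarian intestinal cells. piwi-1 encodes an Argonaute family protein and is the standard marker of the neoblasts, the dividing stem cells of the planarian.

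The tissue was fragments of the planarian Schmidtea mediterranea, with no treatment, genotype, strain or age given, embedded in OCT, fresh frozen and cut in a cryostat onto 1 puck. Slide-seqV2 captures polyadenylated RNA on a layer of barcoded beads of known position, and the 1 library of this puck was sequenced in 2 runs. There were no replicate pucks, so no test across samples was possible, and the intervals below cover counting error only. The table holds 3364828 UMIs on 33518 barcodes and 22150 genes, without normalization. A bead covers a small region that can hold several cells or part of a cell, so a higher level can come from more intestinal cells or from more RNA per cell, and these cannot be told apart.

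Most mat2a-only beads were called from few molecules. A total of 490 beads held 1 UMI of mat2a, 114 held 2, 19 held 3 and 9 held 4. Together they held 811 of the 1077 mat2a UMIs of the table. The mat2a level ranged from 3.51 to 400 UMIs per 10000 UMIs of the bead, with a median of 22.8. Just inside the limit on total UMIs, 5 mat2a-only beads had 50 to 54 UMIs, and just outside it 1 bead with 45 to 49 UMIs held mat2a without piwi-1. In all, 43 barcodes below the limit held mat2a without piwi-1.

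The share of beads that held mat2a without piwi-1 rose with depth. mat2a-only beads were 1.47% of the beads with at least 50 and under 100 UMIs, 3.19% of those under 200, 7.69% under 400, 13.3% under 800 and 19.1% of the 995 beads with 800 UMIs or more. Their median was 536 UMIs per bead, against 153 for beads with neither gene. Each mat2a-only bead was therefore paired with a different neither-gene bead whose total lay within 10% of its own. A partner was found for 631 of the 632, and the unpaired bead was the deepest, with 3593 UMIs. The 631 mat2a-only beads held 409181 UMIs and the 631 matched beads 407416, with a median of 535 UMIs and 267 genes per bead in both sets.

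**Figure D1:**
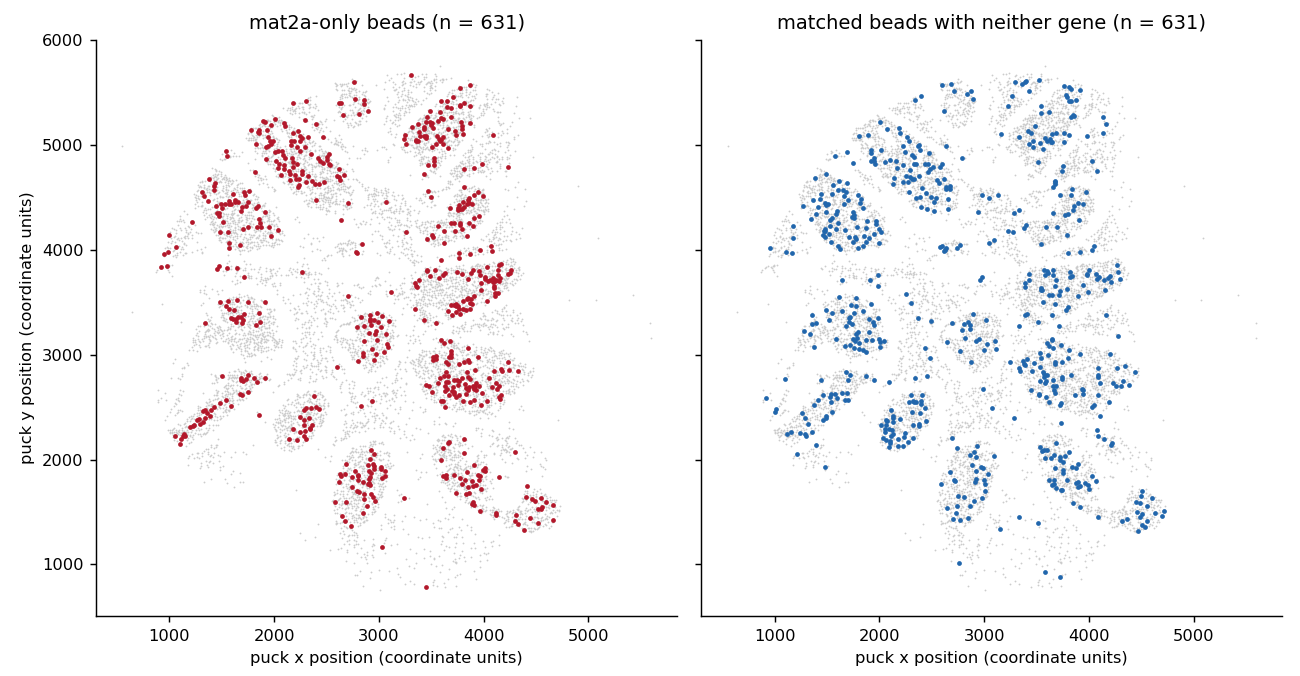
Positions of the 631 mat2a-only beads (left, red) and the 631 matched beads with neither gene (right, blue) on the puck, over all 8789 beads with at least 50 UMIs (grey), with both axes in the unstated units of the coordinates. Of the 632 mat2a-only beads 81.3% and of the matched beads 75.3% lay over tissue, and 423 of the 631 mat2a-only beads on the left had another one within 50 units.

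The intestine label was checked on genes that the rule did not use. The study's supplementary list of cell type genes gives 14 intestine genes besides mat2a, and 1 of them, SMED30016196, is also on its stem cell list and was kept apart. According to the methods, the marker lists came from a planarian single-cell RNA-seq atlas. The table marks its genes as differentially expressed without saying in which data, so some may have been kept for their levels on these beads, and the list is not taken as independent evidence of a direction. No table at hand pairs these identifiers with gene names, and they are given as identifiers. The 13 remaining intestine genes held 10226 UMIs on mat2a-only beads and 6742 UMIs on matched beads. This was 250.4 UMIs per 10000 UMIs of genes other than mat2a and piwi-1 (95% Poisson interval 245.6 to 255.3) on mat2a-only beads and 165.5 (161.6 to 169.5) on matched beads, a ratio of 1.51 (exact conditional Poisson interval 1.47 to 1.56). Intestine RNA was thus also common on beads without a mat2a UMI, and the selection marks beads richer in it rather than the only beads that hold it.

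Of the 13 intestine genes, 12 had at least 100 UMIs over both sets of beads, the minimum for a gene to be counted. At a fold of 1.5, 9 of these 12 were higher on mat2a-only beads and 0 were lower. For comparison, 11.5% of all 833 genes with 100 UMIs were higher past this fold and 13.4% were lower. The median ratio was 1.56 for the intestine genes and 1.06 for all genes counted.

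The most abundant intestine gene was SMED30018252, with 4614 UMIs on mat2a-only beads and 3238 UMIs on matched beads. Its ratio was 1.42 (interval 1.36 to 1.49), below the fold of 1.5 although it gave the largest difference in UMIs of the 13. SMED30020296 had 1427 UMIs on mat2a-only beads and 753 UMIs on matched beads, a ratio of 1.89 (1.73 to 2.07). SMED30035609 followed with 1365 UMIs on mat2a-only beads and 867 UMIs on matched beads, a ratio of 1.57 (1.44 to 1.71). These 3 genes made up most of the UMIs of the list in both sets, so the summed ratio mainly reflects them.

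Among genes of middle abundance, SMED30005670 had a ratio of 1.83 (1.51 to 2.23), with 301 UMIs on mat2a-only beads and 164 UMIs on matched beads. SMED30032823 had 420 UMIs on mat2a-only beads and 271 UMIs on matched beads, a ratio of 1.55 (1.32 to 1.81). SMED30018899 and SMED30001635 stayed below the fold, with ratios of 1.39 (1.26 to 1.54) and 1.29 (1.14 to 1.48), and both intervals lay above 1. SMED30018899 had 918 UMIs on mat2a-only beads and 658 UMIs on matched beads. SMED30001635 had 533 UMIs on mat2a-only beads and 411 UMIs on matched beads.

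The highest ratios of the list were those of scarce genes, whose intervals were wide. SMED30020778 had 96 UMIs on mat2a-only beads and 40 UMIs on matched beads, a ratio of 2.39 (1.64 to 3.55). SMED30005571 had 77 UMIs on mat2a-only beads and 37 UMIs on matched beads, a ratio of 2.08 (1.39 to 3.16). The lower bounds of both intervals lay below the ratio of the abundant SMED30020296, so the order of these 3 genes is not settled at this depth. SMED30003470 had a ratio of 1.78 (1.29 to 2.48), with 109 UMIs on mat2a-only beads and 61 UMIs on matched beads. SMED30000013 had a ratio of 1.56 (1.20 to 2.02), with 156 UMIs on mat2a-only beads and 100 UMIs on matched beads. SMED30015889 had a ratio of 1.55 (1.22 to 1.98), with 179 UMIs on mat2a-only beads and 115 UMIs on matched beads. For SMED30000258, with 31 UMIs on mat2a-only beads and 27 UMIs on matched beads, a difference was not detectable at this depth (ratio 1.15, interval 0.662 to 1.99).

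**Figure D2:**
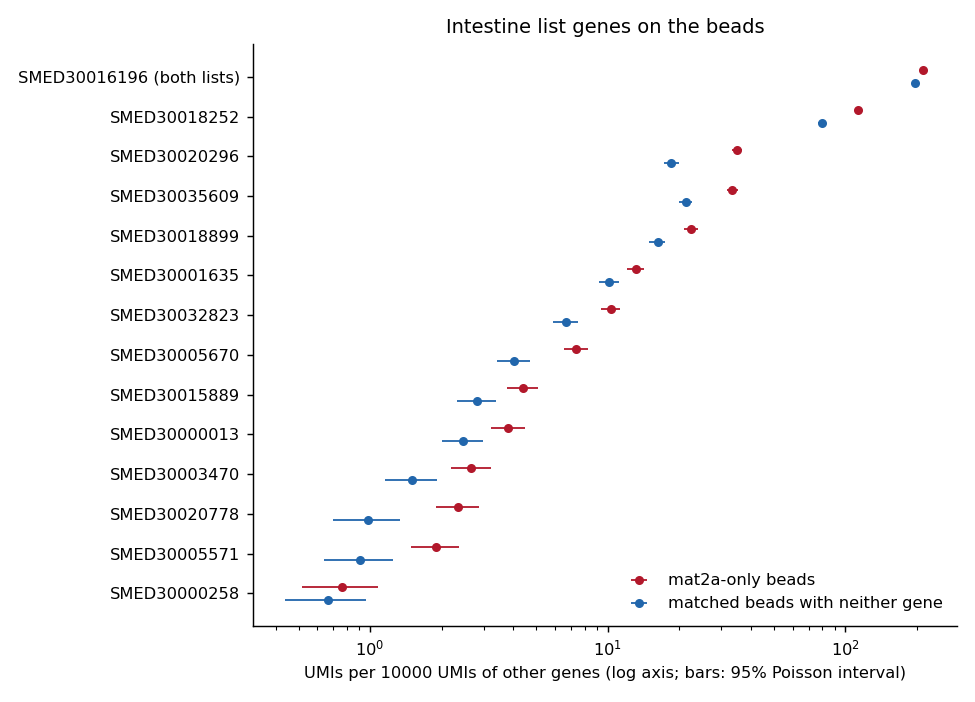
Level of each of the 14 listed intestine genes besides mat2a, in UMIs per 10000 UMIs of genes other than mat2a and piwi-1 (log axis), on mat2a-only beads (red, upper point) and matched beads (blue, lower point), with 95% Poisson intervals. All 14 red points lie right of their blue points, and the intervals of SMED30000258 overlap widely.

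The gene on both lists, SMED30016196, was nearly as abundant on either set, at 212 UMIs per 10000 on mat2a-only beads and 196 on matched beads, a ratio of 1.08 (1.05 to 1.12). It was found on 617 of the 631 mat2a-only beads and on 615 of the 631 matched beads. This placed it near the median of all genes counted rather than among the intestine genes.

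The stem cell list was set beside the intestine list as that of the other cell type the study examined, with piwi-1 at 0 on both sets by the rule. Its 20 genes without piwi-1 and the shared gene held 23701 UMIs on mat2a-only beads and 23684 UMIs on matched beads, which was 580.4 and 581.3 UMIs per 10000, a ratio of 0.998 (0.981 to 1.02). Of the 20 genes, 17 had at least 100 UMIs, and 0 of these passed the fold in either direction. Of all 833 genes counted, 11.5% were higher and 13.4% lower past it. Their median ratio was 1.0, and per bead the summed level had a median of 554 UMIs per 10000 on mat2a-only beads and 565 on matched beads.

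Among the 17 stem cell genes with at least 100 UMIs, ratios lay on both sides of 1. SMED30029763 was the lowest of these 17, with 3799 UMIs on mat2a-only beads and 5198 UMIs on matched beads, a ratio of 0.729 (0.699 to 0.760). SMED30014446 and SMED30025522 had ratios of 0.783 (0.624 to 0.980) and 0.800 (0.698 to 0.916). The highest of the 17 were SMED30011041 at 1.28 (1.08 to 1.51), SMED30029899 at 1.26 (1.17 to 1.35) and SMED30035193 at 1.14 (1.09 to 1.19). Of the 3 scarcer genes, which were named after their values were seen, SMED30031463 had 29 UMIs on mat2a-only beads and 55 UMIs on matched beads (ratio 0.526, 0.323 to 0.839), SMED30034055 had 23 and 10 UMIs on them (2.29, 1.05 to 5.4), and SMED30033302 had 12 on both. The ratio of 0.998 for the sum is therefore a balance of genes on both sides of 1. SMED30029763 was also the stem cell gene with the largest level on piwi-1 beads without mat2a, where it reached 273 UMIs per 10000, against 93.0 on mat2a-only beads and 128 on matched beads.

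Beads with piwi-1 alone, 632 of which were drawn to the same depths as the mat2a-only beads, held 114.8 UMIs per 10000 of the 13 intestine genes (111.5 to 118.1). The 169 beads with both genes held 170.1 (164.6 to 175.7), close to matched beads and below mat2a-only beads, although their median depth was 1063 UMIs. Of the 801 beads with mat2a, 21.1% held piwi-1 as well (binomial interval 18.3% to 24.1%). Beads without mat2a, weighted to the same depths, held piwi-1 in 26% of cases.

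Bead by bead, the intestine genes of mat2a-only and matched beads overlapped widely. The 13 genes together ranged from 0 to 928 UMIs per 10000 on mat2a-only beads, with a median of 226, and from 0 to 976 on matched beads, with a median of 131. No UMI of any of them was seen on 32 mat2a-only beads, or 5.07% (3.49% to 7.08%), and on 85 matched beads, or 13.5% (10.9% to 16.4%). At least 5 of the 13 genes were found on 312 mat2a-only beads, or 49.4% (45.5% to 53.4%), and on 212 matched beads, or 33.6% (29.9% to 37.4%). A mat2a-only bead held a median of 4 of the genes and a matched bead a median of 3, and the range of either set reached from 0 to 928 UMIs per 10000 or more.

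Over all genes, 833 had at least 100 UMIs on both sets together, leaving out mat2a and piwi-1. Of these, 96 were higher on mat2a-only beads at a fold of 1.5 and 112 were lower. The larger departures were on the lower side, since 56 genes were lower and 9 were higher at a fold of 2. These ratios compare summed UMIs, not numbers of beads with the gene. In examples picked after seeing the data, a gene at a ratio of 0.477 was on 248 mat2a-only and 271 matched beads. Another at 0.387 was on 30 and 64 beads. How far the lower genes differ in beads or in UMIs per bead was not tested. The 87 higher genes on neither list held 4.11% of the UMIs on mat2a-only beads and 2.48% on matched beads. Of the 833 genes, 803 were on neither list. The 112 lower genes, all of them among these 803, held 3.88% of the UMIs on mat2a-only beads and 8.23% on matched beads. Genes that differed by less than the fold are in none of these shares, and the 9 intestine genes past the fold are not in that of the 87.

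**Figure D3:**
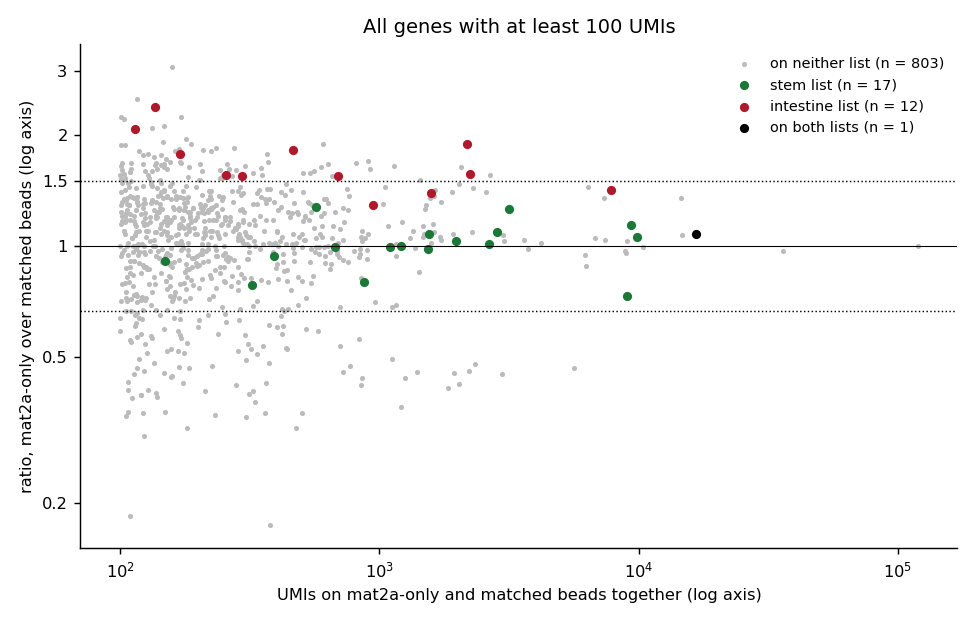
Ratio of mat2a-only over matched beads (log axis) against the UMIs of each gene on both sets together (log axis) for the 833 genes with at least 100 UMIs, with the fold of 1.5 as dotted lines. Intestine genes (red, 12) lie above 1, stem cell genes (green, 17) lie between the dotted lines, and the genes on neither list (grey, 803) reach from 0.174 to 3.07.

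As the identifiers outside the lists have no names here, only the 2 at each end by the bounds of their intervals are given, and these are extremes picked from 803 genes. SMED30021154 had 120 UMIs on 95 mat2a-only beads and 39 UMIs on 35 matched beads, a ratio of 3.07 (2.12 to 4.53). SMED30009337 had 83 UMIs on 67 mat2a-only beads and 33 UMIs on 32 matched beads, a ratio of 2.51 (1.66 to 3.88). Both were spread thinly, with at most 4 and 3 UMIs on a mat2a-only bead. SMED30002668 had 56 UMIs on 35 mat2a-only beads and 321 UMIs on 72 matched beads, a ratio of 0.174 (0.129 to 0.232). It was concentrated on few beads, as 10 matched beads held 64.5% of its UMIs on matched beads and 1 of them held 78. Without that bead, a setting chosen after seeing the data, its ratio was 0.229 (0.168 to 0.307). SMED30000295 had 17 UMIs on 13 mat2a-only beads and 92 UMIs on 46 matched beads, a ratio of 0.184 (0.103 to 0.311). For this gene, 10 matched beads held 47.8% of its UMIs on matched beads.

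The gene ratios were also compared between separate pieces of tissue, numbered by their count of mat2a-only beads. Here the minimum for a gene was 50 UMIs in the pieces it was chosen in and 30 UMIs in the others. The counts and shares below therefore cannot be set beside those of the genes with at least 100 UMIs. Of the 67 genes that were lower past the fold in pieces 1, 3, 5, 7 and 9, 46 were lower past the fold in pieces 2, 4, 6 and 8, where 12.6% of all 666 genes compared were. Of the 62 genes that were higher past the fold in the odd-numbered pieces, 22 were higher past it in the even-numbered pieces, where 15.2% of all genes compared were. The median ratio of the 62 was 1.65 in the pieces they were chosen in and 1.30 in the others, and that of the 67 was 0.511 and 0.527. Chosen the other way, in the even-numbered pieces, 48 of 87 lower genes and 20 of 85 higher genes were past the fold in the odd-numbered pieces, where 11.3% and 8.75% of all 617 genes compared were. The median ratio of these 87 was 0.521 in the pieces they were chosen in and 0.628 in the others, and that of the 85 was 1.86 and 1.23. These shares describe 1 puck, and pieces may come from the same worm.

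The ratio of the 13 intestine genes was above 1 in every subset of mat2a-only beads examined. By total UMIs, the 158 shallowest mat2a-only beads, with 50 to 265 UMIs, held 216 UMIs per 10000 and their matched beads 150, a ratio of 1.44 (1.26 to 1.64). The ratio was 1.29 (1.19 to 1.40) for 266 to 535 UMIs, 1.43 (1.35 to 1.52) for 537 to 869 UMIs and 1.59 (1.52 to 1.66) for 871 UMIs and more. By mat2a UMIs, it was 1.43 (1.37 to 1.48) for the 490 beads with 1 UMI, 1.71 (1.60 to 1.83) for the 114 with 2 and 1.67 (1.49 to 1.87) for the 28 with 3 or more. The level of the 13 genes on the mat2a-only beads themselves was 251 UMIs per 10000 with 1 mat2a UMI, 242 with 2 and 270 with 3 or more, and on their matched beads it was 176, 141 and 162. From 1 to 2 mat2a UMIs the level was thus lower on both sets, and the drop was larger on the matched beads. These levels are shares of UMIs, not amounts per bead, and the cause of the higher ratio was not tested. Beads with more mat2a UMIs were also deeper, with medians of 465, 776.5 and 1049 UMIs, and each group was compared with matched beads of its own depth. The stem cell ratio ran from 0.949 to 1.01 over these 3 groups.

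Sections covered only part of the puck, so a bead counted as lying over tissue if, in the original table of both runs, 10 UMIs or more were found on at least 25% of the 50 barcodes closest to it. Of the 632 mat2a-only beads, 514 lay over tissue, or 81.3% (78.1% to 84.3%), and 118 lay off it. Of the 631 matched beads, 475 lay over tissue, or 75.3% (71.7% to 78.6%). Off-tissue beads also held mat2a, as 5.13% of the 2612 such beads had a UMI of it at a median depth of 123 UMIs, against 10.8% of the 6177 beads over tissue at a median of 237. Thinned to 50 UMIs per bead, the shares expected were 1.22% off tissue and 1.53% over tissue, and no interval was computed for them. The 118 off-tissue mat2a-only beads had an intestine ratio of 1.57 (1.43 to 1.73) against matched off-tissue beads, and the 514 over tissue one of 1.5 (1.45 to 1.55) against matched beads over tissue. The stem cell ratio was 0.857 (0.817 to 0.899) off tissue and 0.998 (0.979 to 1.02) over it.

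Tissue barcodes within 50 units of each other were joined into pieces, and 9 pieces held at least 20 mat2a-only beads, 457 in all. mat2a-only beads made up 7.24% to 11.5% of the beads in these pieces. Within each piece, they were compared with its own neither-gene beads, weighted to the same depths. The intestine ratio ranged from 1.16 (1.04 to 1.30) in piece 9, with 25 mat2a-only beads, to 1.56 (1.48 to 1.65) in piece 2, with 74. All 9 of these intervals lay above 1, but they leave out the counting error of the weighted comparison beads and are too narrow. The lower bound of 1.04 in piece 9 therefore does not settle its side of 1. The median over pieces was 1.32, below the 1.51 of the whole puck. The stem cell ratio ranged from 0.876 to 1.05, and its interval, too narrow for the same reason, lay below 1 in 3 pieces and above 1 in 0.

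**Figure D4:**
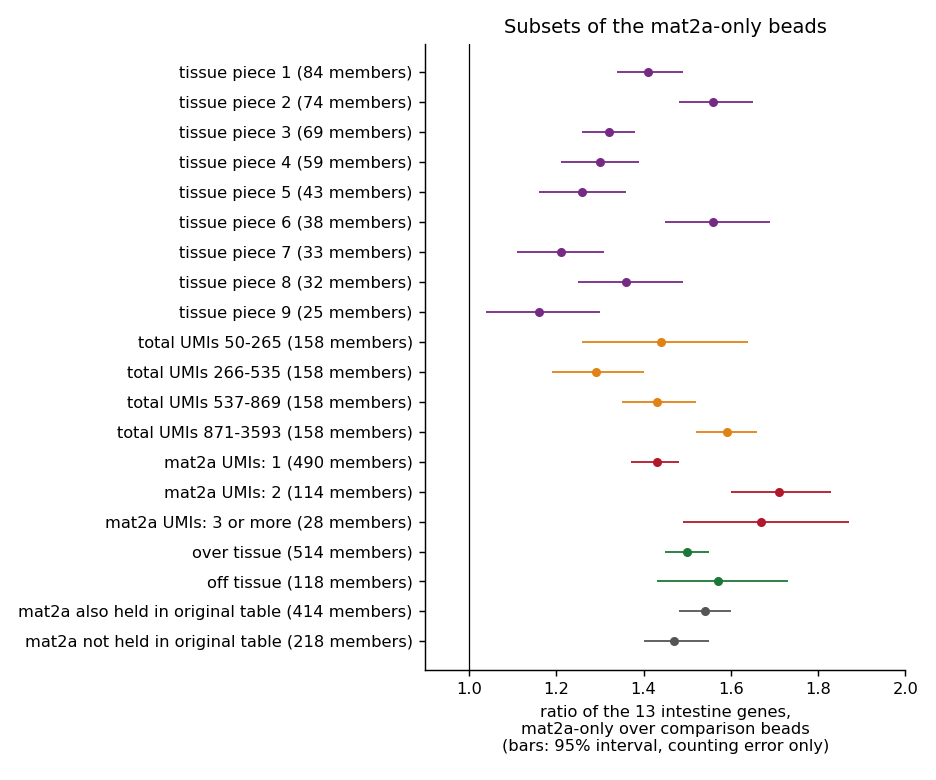
Ratio of the 13 intestine genes, mat2a-only over comparison beads, for mat2a-only beads split by tissue piece (purple), total UMIs (orange), mat2a UMIs (red), place on the puck (green) and presence of mat2a in the original table (grey), with 95% intervals for counting error. The purple intervals leave out the counting error of the comparison beads and are too narrow. Every ratio lies right of 1, from 1.16 in piece 9 to 1.71 for beads with 2 mat2a UMIs.

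mat2a-only beads lay close to each other. The median distance to the nearest other mat2a-only bead was 38.6 units, and from a matched bead to the nearest mat2a-only bead it was 52.7 units. Within 50 units, 423 of the 631 mat2a-only beads and 302 of the 631 matched beads had a mat2a-only bead. Among the neighbours of mat2a-only beads in that radius, 16.1% held mat2a (15.2% to 17.0%), against 11.7% (10.9% to 12.6%) among the neighbours of matched beads, a ratio of 1.37. A bead near several of them was counted with each, so these intervals are too narrow. Neighbours had a median of 315.5 UMIs around mat2a-only beads and 278 around matched beads, and thinned to 50 UMIs the shares were 2.12% and 1.62%. piwi-1 ran the other way, on 12.7% (11.9% to 13.5%) of the neighbours of mat2a-only beads and 15.1% (14.2% to 16%) of those of matched beads.

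The surroundings of mat2a-only beads were rich in the other intestine genes too. On neither-gene beads outside the matched set, the 13 genes reached 233 UMIs per 10000 (227 to 239) within 25 units of a mat2a-only bead, close to the 250.4 of the mat2a-only beads. They reached 216 (212 to 221) at 25 to 50 units, 145 (142 to 149) at 50 to 100, 89.6 (85.8 to 93.6) at 100 to 200 and 122 (115 to 129) beyond 200 units. Around matched beads the same measure was flatter, at 174 (169 to 180) within 25 units, 185 (181 to 189) at 25 to 50, 172 (168 to 175) at 50 to 100, 133 (128 to 139) at 100 to 200 and 152 (138 to 166) beyond.

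Depth and tissue moved with this distance, and their part in the profile was not tested. The median depth of the neither-gene beads was 212 UMIs within 25 units of a mat2a-only bead and 84 UMIs beyond 200 units, and 86.1% and 36.8% of them lay over tissue. Over tissue alone, the level within 25 units was 2.02 times that beyond 200 units (1.84 to 2.23), against 1.91 times (1.8 to 2.04) over all such beads. The stem cell genes varied less, between 541 and 592 UMIs per 10000 over the 5 distances.

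**Figure D5:**
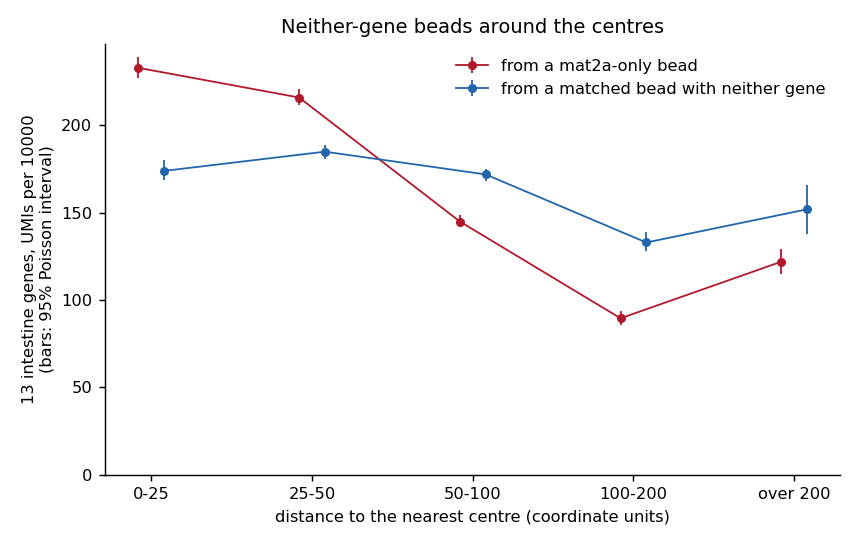
UMIs per 10000 of the 13 intestine genes on neither-gene beads outside the matched set, by distance to the nearest mat2a-only bead (red) and to the nearest matched bead (blue), in coordinate units, with 95% Poisson intervals. The red profile drops between 25 to 50 and 100 to 200 units and ends at 122, while the blue profile stays between 133 and 185.

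The members were then looked up in the other deposited tables. In the Syrah-processed table of the first run, 610 of the 632 barcodes held mat2a, and 604 met the whole rule. In the original table of both runs, 414 held mat2a, or 65.5%, and 406 met the rule. Of the 632 barcodes, 187 had fewer than 50 UMIs in that table and 57 had 0 UMIs, and it held 88 mat2a-only barcodes that were not among the 632. According to the methods, Syrah also redirects the barcodes of duplicated beads to the bead kept from each group. A bead can thus carry another barcode in the original table, and how many of these barcodes this concerns was not tested. In all 4 tables, 403 barcodes held mat2a. The 218 mat2a-only beads without mat2a under the same barcode in the original table of both runs had an intestine ratio of 1.47 (1.40 to 1.55). The 414 with it had 1.54 (1.48 to 1.60). Both groups were thus richer in intestine genes than their matched beads, and the intervals of the groups overlapped.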

How the data were processed

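The puck gave 1 library, sequenced in 2 runs. From the original reads, and again after Syrah correction of Read 1, the authors ran version 3.1.2 of the WARP pipeline for Slide-seqV2 and deposited 4 tables of raw UMI counts, which were used as they stand. The methods name the schMedS3 genome, genes carry SMED30 identifiers in the tables, and reads were not reprocessed. The deposited coordinates (an x and a y per barcode, with no stated unit) were taken as given. Columns of counts that matched no sample numbered 0.

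The bead rule and the gene lists were chosen with earlier results of these data known. The analysis used scipy 1.17.1, numpy 2.4.6 and matplotlib 3.10.9 under python 3.11.15. mat2a-only beads were paired without replacement with neither-gene beads within 10% of their total UMIs, the nearest total first and ties by a fixed seed. A gene's level was its UMIs over all UMIs except those of mat2a and piwi-1. Ratios carry exact conditional Poisson 95% intervals, sums exact Poisson intervals, and shares exact Clopper-Pearson intervals. For the ratios within pieces, the intervals cover the counting error of the UMIs on mat2a-only beads alone. UMIs were counted once per molecule by the pipeline, and the intervals treat them as independent. With 1 puck there were no p-values. Within pieces and for overlaps with piwi-1, comparison beads were weighted by bins of total UMIs, 4 per doubling. Thinned shares are expected values without drawing. Ratios, intervals and matching were run on simulated data as a check of the code. There each gene was drawn as a Poisson total per set of beads, so UMIs concentrated on few beads were not simulated. The check therefore cannot show whether the intervals are wide enough for such genes.

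Named genes were mat2a, piwi-1, the listed intestine genes, the 3 highest and 3 lowest stem cell genes by ratio among those with at least 100 UMIs, and 2 genes from each end outside the lists. Alternatives covered the minimum of UMIs per bead and per gene, the mat2a minimum, the table, a restriction to beads over tissue, matching, abundant genes, the fold and the radius.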

Additional observations from a re-analysis of the deposited data

How the results depend on the processing

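No paired analysis was possible because 1 library on 1 puck has no replicates. Under the 18 other settings, 42 of 63 values stayed within the 95% interval of the reported ratio, or within 1.5 times a reported count. No ratio of the intestine genes changed side of 1, and over 10 settings it ran from 1.39 to 1.76. The cause of each shift below was not tested. Requiring at least 2 UMIs of mat2a left 142 mat2a-only beads, an intestine ratio of 1.76, and 52 genes higher and 48 lower past the fold of 280 genes with 100 UMIs, fewer being counted on fewer beads. The Syrah-processed table of the first run gave an intestine ratio of 1.39 and 62 higher genes. The original table of both runs gave an intestine ratio of 1.46, a stem cell ratio of 0.965, 61 higher genes and a neighbour ratio of 1.24. The original table of the first run gave a stem cell ratio of 0.977, with 49 higher and 71 lower genes. Without the 20 most abundant genes, which include 1 intestine and 3 stem cell genes of the lists, the intestine ratio was 1.62 and the stem cell ratio 1.07. Counts of genes depended on the minimum, with 407 higher and 403 lower of 2578 genes at 30 UMIs, and 24 higher and 43 lower of 289 at 300 UMIs. At a fold of 2, 9 were higher and 56 lower. Another draw of matched beads, the restriction to beads over tissue and a minimum of 100 UMIs per bead moved none of these values beyond its limit. The limits that define tissue were not varied. Intervals cover counting error only, and 77.5% of mat2a-only beads rest on 1 UMI of mat2a.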
